A study of Homo sapiens with 12 samples.

Results

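The genes described here are 10 members of the S100 family: S100A4, S100A6, S100A8, S100A9, S100A10, S100A11, S100A12, S100A13, S100P and S100Z. They were taken by gene symbol from the RNA-seq table of U937 cells, in which these 10 of 44786 symbols were listed with 33 of 197782 transcripts. U937 is an established human myelomonocytic leukemia cell line. The 12 libraries were 3 each of untreated cells, cells given 200 nM of the hypomethylating agent decitabine (DAC), cells given 1 µM all-trans retinoic acid (ATRA), and cells given both at these doses (DAC+ATRA). By the labels, all cells grew in medium with 20% FCS and 5 ng/ml GM-CSF, the agents were given over 3 days, treated cells were harvested at 72 h and untreated cells at 96 h, so that by the labels time and treatment cannot be told apart. The study's methods differ from the labels on the medium (less serum and no GM-CSF named), on the length of ATRA exposure (there only the last day) and on the harvest, for which they give 72 h with no other time for untreated cells. The labels call the replicates technical, so p-values measure the spread between these libraries of 1 cell line.

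S100 proteins are small calcium sensors that bind calcium through EF-hand motifs, mostly work as dimers, and change shape to grip target proteins. S100A8 and S100A9 pair as calprotectin, which is abundant in the cytosol of neutrophils and monocytes, binds zinc and manganese, and acts outside the cell as an alarmin, as does S100A12. S100A4, S100A6, S100A10 and S100A11 act on the cytoskeleton and on membranes, in part through annexins. Most of the family lies in a cluster on chromosome 1, where 8 of the 10 members are found, while S100P is on chromosome 4 and S100Z on chromosome 5.

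The upstream regions of the 4 members that rose with DAC are shown because the numbers of CpG sites in them, the sites at which DNA methyltransferases act, differ. Each run is the 250 bases before the gene's start from RefSeq (GRCh38.p14), 5′ to 3′ on the gene's own strand, and capitals mark CpG dinucleotides.
S100A9 (chr1:153357604-153357853, plus strand): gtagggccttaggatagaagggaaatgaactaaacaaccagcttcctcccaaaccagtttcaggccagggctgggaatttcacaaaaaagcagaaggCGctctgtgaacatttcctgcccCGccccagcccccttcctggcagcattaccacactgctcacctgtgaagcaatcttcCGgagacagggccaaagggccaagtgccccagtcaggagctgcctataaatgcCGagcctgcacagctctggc
S100P (chr4:6693628-6693877, plus strand): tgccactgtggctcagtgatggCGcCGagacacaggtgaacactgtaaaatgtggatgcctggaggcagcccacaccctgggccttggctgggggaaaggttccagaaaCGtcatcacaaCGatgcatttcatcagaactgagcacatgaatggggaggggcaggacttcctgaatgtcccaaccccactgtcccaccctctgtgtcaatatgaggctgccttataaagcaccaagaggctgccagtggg
S100A4 (chr1:153545807-153546056, minus strand): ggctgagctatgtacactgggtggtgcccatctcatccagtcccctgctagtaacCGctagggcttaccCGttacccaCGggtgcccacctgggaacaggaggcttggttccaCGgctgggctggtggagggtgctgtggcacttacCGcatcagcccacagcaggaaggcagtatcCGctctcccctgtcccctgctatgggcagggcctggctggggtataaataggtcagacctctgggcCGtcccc
S100A11 (chr1:152037005-152037254, minus strand): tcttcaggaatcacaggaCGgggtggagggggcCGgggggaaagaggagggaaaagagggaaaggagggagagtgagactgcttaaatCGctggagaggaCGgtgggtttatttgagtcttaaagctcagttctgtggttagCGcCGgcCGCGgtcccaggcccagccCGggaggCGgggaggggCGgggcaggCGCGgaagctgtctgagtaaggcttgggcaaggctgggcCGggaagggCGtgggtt
These windows held 4 CpGs for S100A9, 4 for S100P, 7 for S100A4 and 15 for S100A11. The median over 35116 promoters of the same table was 11 (quartiles 3 and 23), and 29.3% of promoters held fewer than S100A9. Over the 14 windows listed for the 10 members, the count ran from 1 for S100A12 to 24 for S100A6 and S100A10. Of the windows, 10 were under the median, among them those of S100A8, which overlap. DNA methylation was not measured in these libraries.

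Letter matches were searched on both strands of the 14 windows, of which some members have several, and shares of all promoters are per window. The TATA box letters TATAAA were found in 8 windows of 7 members, beside 10.7% of all promoters, and their first base lay 29 bases before the start of S100A9, 28 before that of S100P and 31 before that of S100A4. GAGGAA, the core bound by PU.1, was found in 4 windows of 3 members (S100A8, S100A9 and S100Z; 23.6% of promoters), with S100A9's 208 bases before the start. The windows of S100A8 overlap, and its TATA site and its PU.1 site are each counted in more than 1 window. TTGCNNAA, a C/EBP-type motif, was found in 1 window each of S100A11 and S100A12 (9.05% of promoters). The retinoid receptor letters AGGTCA were found in 1 window, that of S100A4 (12.1% of promoters), beginning 24 bases before its start. GGGCGG, the GC box, was found in 5 windows of 5 members (42.6% of promoters), S100A9 and S100A11 among them. These are matches of letters and not sites shown to be bound.

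The members differ in how far their transcripts overlap. The values are reads per transcript, counted with htseq-count, which in its default mode leaves out a read that falls on several features (the mode used is not given in the sources used here). S100A9 has 1 transcript, and all of its 573 exon bases lie outside any other transcript; it had 21498 reads over the 12 libraries. S100A12 is also alone on its 485 bases, but had 18 reads. S100A8 had 1 read in all, in a DAC library and on a transcript with no defined coding sequence. Of the 408 exon bases of S100A8's main coding transcript ENST00000368733, 2 lie outside other transcripts, and none of the 495 bases of its other coding transcript does. Among S100A13's 5 coding transcripts, between 0 and 23 bases lie outside other transcripts, and these 5 held 5 of the gene's 709 reads; the rest fell on ENST00000491177, which has 1177 such bases. So few reads for S100A8 and for the coding transcripts of S100A6, S100A10 and S100A13 set no level of those mRNAs. Because S100A8 reached 10 normalised reads in no group, no ratio of S100A8 to S100A9 could be formed.

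**Figure D1:**
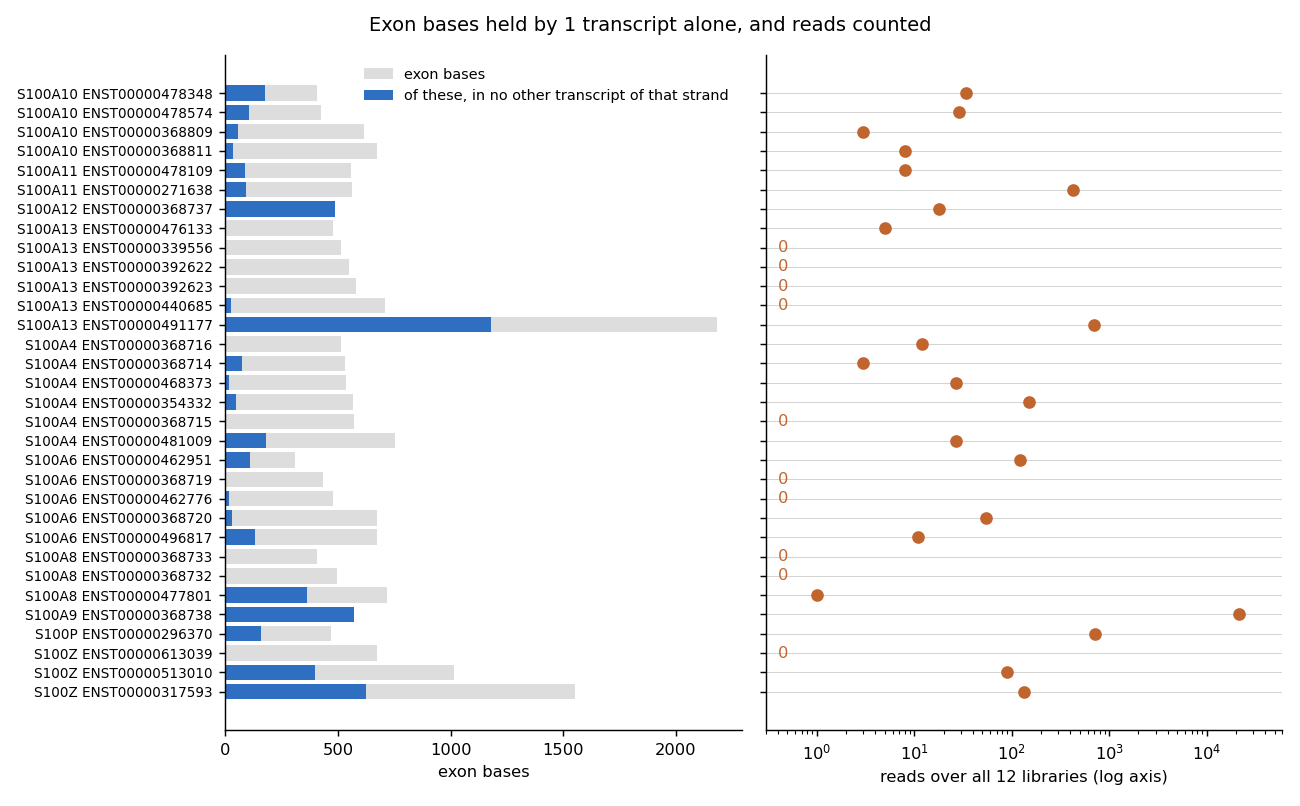
Left, exon bases of 32 of the S100 transcripts listed (grey; those with a read or a defined coding sequence) and those that lie in no other transcript on that strand (blue). Right, reads over all 12 libraries on a log axis, with 0 written where none was counted. S100A9 has all 573 of its bases to itself and 21498 reads, whereas S100A8's main coding transcript has 2 of 408 and no read.

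Libraries are numbered 1 to 12 in the order of their columns, 3 a group. Each held 8042435 to 10683593 counted reads, and mitochondrial transcripts took 40.6% to 42.5% of them in untreated cells, 37.0% to 40.4% with DAC, 38.9% to 41.1% with ATRA and 36.3% to 38.3% with DAC+ATRA. All 6 libraries with DAC lay below the untreated ones, and the part of this share in the S100 values was not tested. A level below is in normalised reads, that is, reads divided by the library's size factor; 3 reads equal 2.50 to 3.71 of these. Protein-coding transcripts with at least 10 normalised reads in at least 3 libraries were tested, 9016 in all, of which 6 belonged to 5 members: S100A9, S100P, S100A11, S100A4 and S100Z (2 transcripts). The other 5 members had none past that filter. A transcript that passes only through the treated libraries has to be higher there, as did S100P, the second S100Z transcript and, but for 1 untreated library, S100A4, so counts over the tested members are descriptions. All fold changes are log2 of normalised reads + 1 from limma, and a transcript was called at an adjusted p under 0.01.

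Of the 5 tested members, judged by their leading transcripts, 4 were called higher with DAC (S100A9, S100P, S100A11 and S100A4), 1 with ATRA (S100A9) and 4 with DAC+ATRA (the same as with DAC). None was called lower in limma, at an unadjusted p under 0.05 in limma or in edgeR. Among all 9016 transcripts, 30.6% were called higher with DAC, 32.6% with DAC+ATRA and 6.47% with ATRA. For DAC, ATRA and DAC+ATRA in turn, the median log2 fold change of the 6 member transcripts was 1.36, 0.22 and 1.25, beside medians of 0.22, 0.00 and 0.20 over all transcripts. With edgeR and TMM scaling these last medians were 0.02, -0.01 and 0.06. In limma with values scaled to library size they were 0.10, -0.05 and 0.06, and in edgeR with DESeq2 size factors 0.05, 0.00 and 0.06, so these medians moved with both the scaling and the tool. With DAC, limma called 2763 transcripts higher and 784 lower and edgeR with TMM 2291 and 1606, and limma scaled to library size 2464 and 1298; with DAC+ATRA these were 2937 and 1278, 2636 and 1840, and 2581 and 1821. All 3 comparisons share the 3 untreated libraries.

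**Figure D2:**
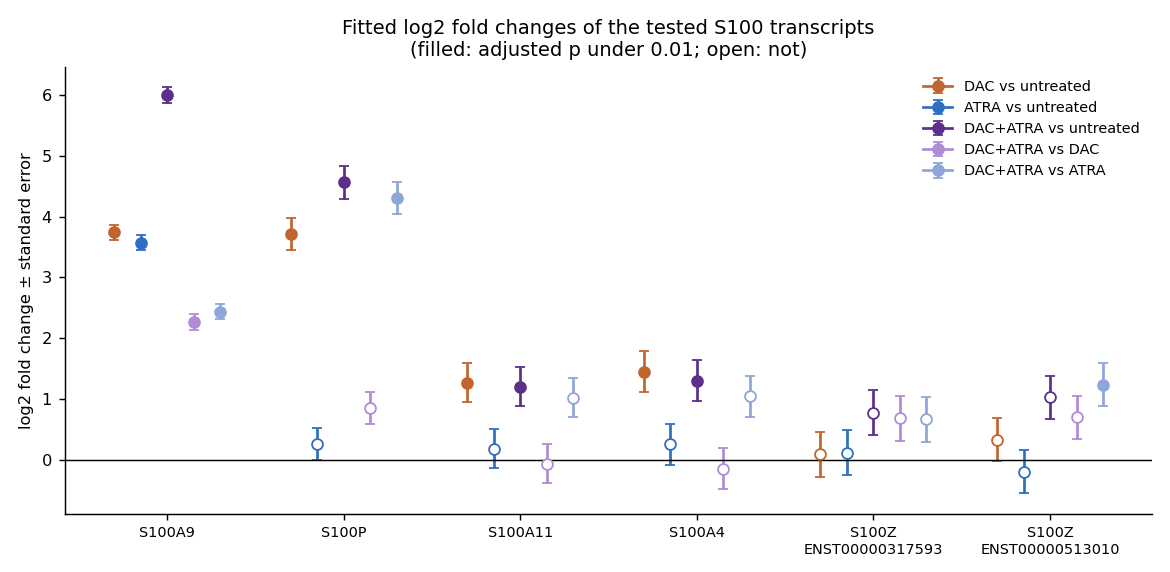
Fitted log2 fold changes (vertical axis) with standard errors for the 6 tested S100 transcripts in 5 comparisons, each over 3 libraries a group. Filled points had an adjusted p under 0.01. S100A9 stands above 2 in every comparison, S100P stands above 3 wherever DAC was added, and the S100A11 and S100A4 values with DAC lie between 1 and 1.5.

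S100A9, the calprotectin subunit of myeloid cells (ENST00000368738, chr1:153357854-153361023, plus strand), was the one tested member called higher with each agent alone, and it rose further with both. It had 80.9, 84.7 and 74.8 normalised reads in untreated cells. With DAC it had 929, 1183 and 1156, and with ATRA 1116, 1021 and 784. With DAC+ATRA it had 4816, 5269 and 5622. All treated libraries lay above all untreated ones, the DAC and ATRA libraries overlapped, and the combination stood apart from both. In that order, the group means (± SD, n = 3) were 80.1 ± 4.97, 1089 ± 140, 974 ± 171 and 5235 ± 404.

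The log2 fold change of S100A9 was 3.74 ± 0.13 (SE) with DAC (limma, adjusted p = 2.22e-15), 3.57 ± 0.13 with ATRA (adjusted p = 2.06e-14) and 6.01 ± 0.13 with DAC+ATRA (adjusted p = 2.00e-18). Among the fold changes of all 9016 transcripts it ranked 501 for DAC, 42 for ATRA and 153 for the combination, counted from the top. By normalised reads it moved from rank 3924 among the tested transcripts in untreated cells to rank 173 with DAC+ATRA. This rank by reads takes no account of transcript length or of bases shared with other transcripts. The combination exceeded DAC alone by 2.27 ± 0.13 (adjusted p = 5.91e-11) and ATRA alone by 2.44 ± 0.13 (adjusted p = 2.70e-12). Leaving out any 1 library kept these values between 2.16 and 2.33 over DAC and between 2.29 and 2.54 over ATRA.

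How the agents combined for S100A9 depended on the scale. On the linear scale, DAC added 1009 normalised reads and ATRA 894 to the untreated level, 1903 together, whereas the combination added 5155. The excess over the sum was 3252 ± 266 (SE from the spread within groups), and 3059 to 3462 when 1 library at a time was left out. On the log2 scale the interaction was negative, -1.30 ± 0.18 (limma, adjusted p = 1.09e-04), so the combination reached 39.5% of the level that the product of the single-agent folds would give. Of all 9016 transcripts, 1.67% had a negative interaction past the threshold, and S100A9 was the only tested member with one in either direction.

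S100P is a small S100 protein first described in placenta that binds ezrin and can act from outside the cell through RAGE. Its transcript (ENST00000296370, chr4:6693878-6697170, plus strand) responded to DAC and showed no detectable change with ATRA alone. Untreated libraries had 4.60, 7.28 and 4.62 normalised reads and ATRA libraries 5.28, 5.46 and 9.99. DAC libraries had 86.5, 67.2 and 98.6, and DAC+ATRA libraries 124, 161 and 171. No library with DAC overlapped one without it, while the untreated and ATRA libraries overlapped. The combination libraries all lay above the DAC libraries.

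The log2 fold change of S100P was 3.72 ± 0.27 with DAC (limma, adjusted p = 3.01e-10) and 4.57 ± 0.27 with DAC+ATRA (adjusted p = 8.81e-12). With ATRA it was 0.26 ± 0.27 (adjusted p = 0.607), with a 95% interval from -0.27 to 0.79. DAC+ATRA exceeded ATRA alone by 4.31 ± 0.27 (adjusted p = 3.65e-11). Over DAC alone the combination was higher by 0.85 ± 0.27, which did not pass in limma (adjusted p = 0.0320) and passed in edgeR with TMM scaling (0.90, adjusted p = 0.00141). Its interaction was 0.59 ± 0.38 (adjusted p = 0.465). On the linear scale its rise with both agents was 66.3 ± 17.0 normalised reads larger than the rises with each added up, with no test of that excess.

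**Figure D3:**
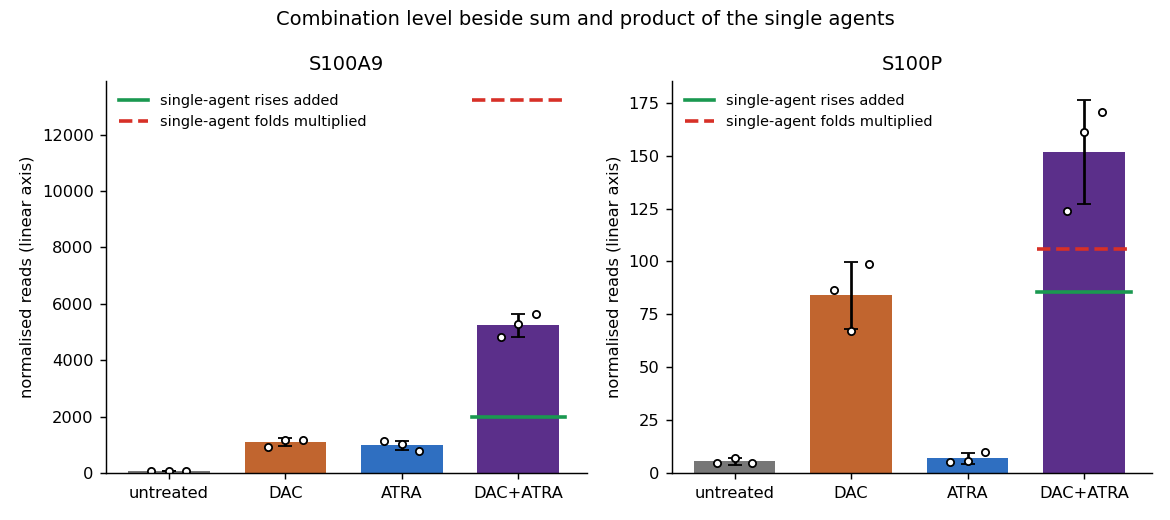
Normalised reads of S100A9 (left) and S100P (right) on linear axes from 0; bars are means of 3 libraries, whiskers the SD and points the libraries. Lines over the combination mark where the single-agent rises add (green) and where their folds multiply (red, dashed). S100A9's combination mean of 5235 lies between the lines, and S100P's mean of 152 lies above both (85.5 and 106).

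S100A11 binds annexin A1 and takes part in membrane repair. Its leading transcript (ENST00000271638, chr1:152032506-152037004, minus strand) had 21.1, 19.1 and 17.5 normalised reads in untreated cells and 20.1, 27.3 and 19.1 with ATRA. With DAC it had 34.6, 35.1 and 88.6, and with DAC+ATRA 30.7, 66.3 and 45.7. Each library with DAC lay above each without it, and DAC library 6, at 88.6, stood far above the other DAC libraries. The log2 fold change was 1.27 ± 0.32 with DAC (limma, adjusted p = 0.00253), 1.20 ± 0.32 with DAC+ATRA (adjusted p = 0.00332) and 0.18 ± 0.32 with ATRA (adjusted p = 0.785). Without DAC library 6 the DAC value was 0.83 (adjusted p = 0.0279), and without DAC+ATRA library 11 the combination's was 0.93 (adjusted p = 0.0311). Both calls were also lost without untreated library 3 (adjusted p = 0.0126 and 0.0151), and that of the combination without untreated library 2 or DAC+ATRA library 12 (0.0119 and 0.0114). Of its 563 exon bases, 92 lie outside other transcripts.

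S100A4, also called metastasin, binds non-muscle myosin IIA and is tied to cell migration. Its leading transcript (ENST00000354332, chr1:153543613-153545802, minus strand) had 6.43, 10.01 and 3.69 normalised reads in untreated cells and 7.39, 9.10 and 6.66 with ATRA. With DAC it had 23.8, 16.6 and 16.9, and with DAC+ATRA 18.1, 17.9 and 14.8. No library with DAC overlapped one without it. The log2 fold change was 1.45 ± 0.34 with DAC (limma, adjusted p = 0.00121), 1.30 ± 0.34 with DAC+ATRA (adjusted p = 0.00258) and 0.25 ± 0.34 with ATRA (adjusted p = 0.701). These rest on 4 to 22 reads a library, and 49 of this transcript's 566 exon bases lie outside other transcripts. Both calls were lost in DESeq2 (adjusted p = 0.0168 and 0.0314) and without untreated library 3 (0.0110 and 0.0217), and that of the combination also without DAC+ATRA library 10 (0.0119) or 11 (0.0113). All 5 S100A4 transcripts with a read, summed, gave 1.37 with DAC and 1.39 with DAC+ATRA (limma on sums by symbol, adjusted p = 2.85e-04 and 1.84e-04).

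**Figure D4:**
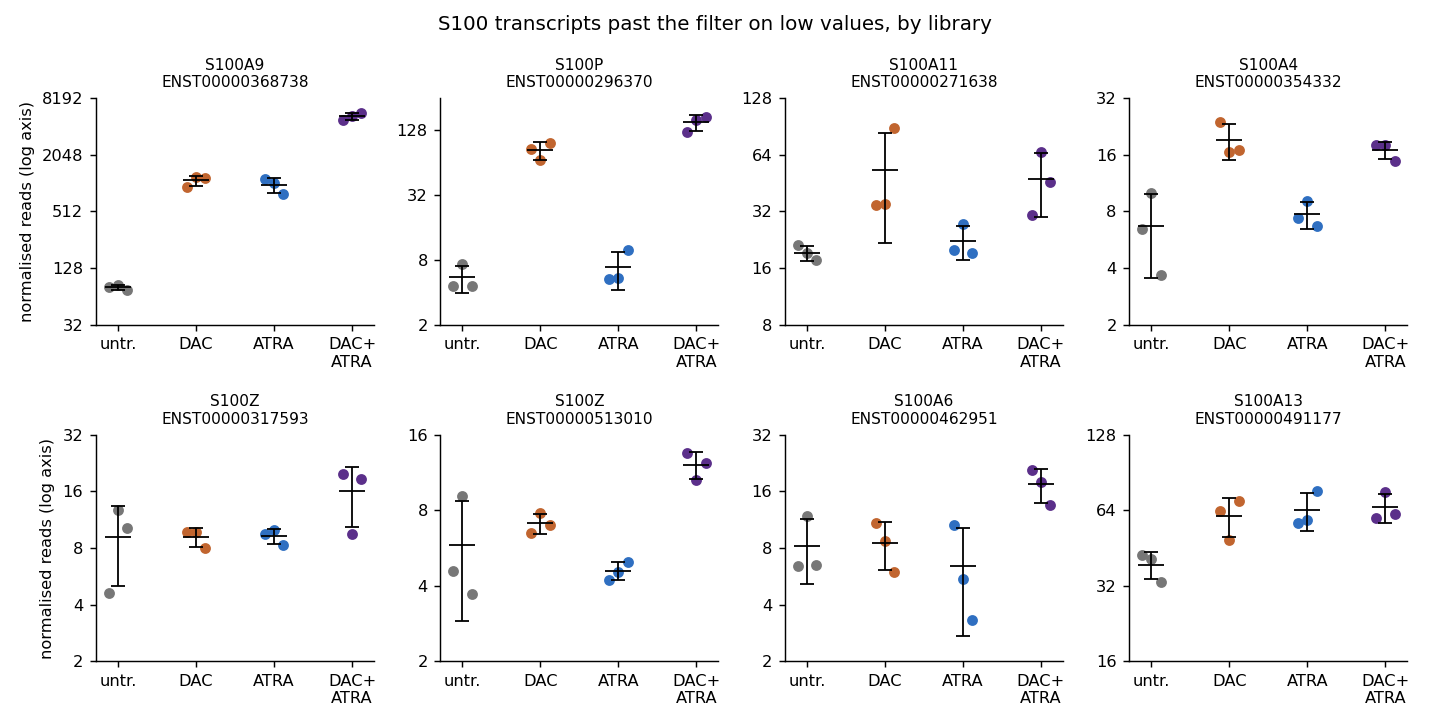
Normalised reads (log axes that differ between panels) in each of the 12 libraries for the 8 S100 transcripts past the filter on low values; bars mark the mean and SD of 3 libraries. In S100A9 the ATRA libraries lie beside the DAC libraries (784 to 1183), and in S100P, S100A11 and S100A4 they lie beside the untreated ones.

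In DAC+ATRA against ATRA, S100A9 and S100P were called higher among the leading transcripts, beside 25.9% of all transcripts. S100A4 (1.05 ± 0.34, limma, adjusted p = 0.0153) and S100A11 (1.02 ± 0.32, adjusted p = 0.0135) did not pass. In DAC+ATRA against DAC, S100A9 was the one leading member transcript called in limma, beside 6.08% of all transcripts, and S100P was also called there in edgeR and DESeq2. There S100A11 differed by -0.07 ± 0.32 and S100A4 by -0.15 ± 0.34 (limma, adjusted p = 0.920 and 0.826). A difference in ATRA's effect between S100A9 and the other members was not tested.

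S100Z, a little-studied member that can pair with S100P, was the one tested gene with no call against untreated cells. Its leading transcript ENST00000317593 had 4.60, 12.7 and 10.2 normalised reads in untreated cells, 9.73, 9.74 and 7.97 with DAC, 9.50, 10.01 and 8.32 with ATRA, and 19.9, 9.47 and 18.5 with DAC+ATRA. These groups overlapped, and its log2 fold change with DAC+ATRA was 0.77 ± 0.37 (limma, adjusted p = 0.0809). Its second tested transcript, ENST00000513010, had 4.60, 9.10 and 3.69 normalised reads in untreated cells and 13.6, 10.5 and 12.4 with DAC+ATRA, which do not overlap. That transcript was 1.23 ± 0.35 higher with DAC+ATRA than with ATRA (limma, adjusted p = 0.00729), and 1.03 ± 0.35 higher than in untreated cells (adjusted p = 0.0177). The first of these calls was lost in edgeR with TMM (adjusted p = 0.0155), in DESeq2 (0.0781) and in limma on all transcripts (0.0126), and the transcript passed the filter only through the 3 DAC+ATRA libraries. It spans chr5:76850001-76878219.

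S100A12, called calgranulin C, is an alarmin of granulocytes that lies between S100A9 and S100A8 on chromosome 1. It had no read in the 6 libraries without DAC. DAC libraries had 1, 8 and 4 reads, and DAC+ATRA libraries 3, 1 and 1. Against a floor of 3 reads over the untreated group, its level was at least 4.67-fold higher with DAC and at least 1.82-fold higher with DAC+ATRA. Without DAC library 5 the first bound was 2.76-fold, and without DAC+ATRA library 10 only 2 reads were left, too few for a bound. It was too low to be tested.

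S100A6, also called calcyclin, and S100A13, which takes part in the release of FGF1, passed the filter only through transcripts that are not protein-coding by annotation. These were read from a fit of all 19373 transcripts past the filter, in which 22.2% were called higher with DAC, 5.11% with ATRA, 25.5% with DAC+ATRA, 5.18% with DAC+ATRA against DAC and 19.1% with DAC+ATRA against ATRA. The S100A13 transcript ENST00000491177 had 42.3, 41.0 and 33.2 normalised reads in untreated cells, 63.8, 48.7 and 69.7 with DAC, 57.0, 58.3 and 76.6 with ATRA, and 59.7, 75.8 and 61.8 with DAC+ATRA. All treated libraries lay above the untreated ones, and the treated groups overlapped. It was called with DAC+ATRA (0.74 ± 0.20, limma, adjusted p = 0.00253), but not with DAC (0.62 ± 0.20, adjusted p = 0.0116) or ATRA (0.70 ± 0.20, adjusted p = 0.0185). That call was lost without untreated library 3 (adjusted p = 0.0192) or DAC+ATRA library 11 (0.0211). Of this transcript's bases, 970 lie outside transcripts of either strand, and the strand setting of the count is not given in the sources used here.

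The S100A6 transcript ENST00000462951, a retained intron, had 6.43, 11.8 and 6.46 normalised reads in untreated cells and 10.6, 5.46 and 3.33 with ATRA. It had 10.8, 8.77 and 5.98 with DAC, and 20.8, 17.9 and 13.6 with DAC+ATRA, above all other libraries. It was called against ATRA (1.41 ± 0.40, limma, adjusted p = 0.00621) and not against untreated cells (1.03 ± 0.40, adjusted p = 0.0332). The call against ATRA was lost without ATRA library 8 (adjusted p = 0.0189) or 9 (0.0448) and without DAC+ATRA library 10 (0.0350) or 11 (0.0235). Of its 311 exon bases, 109 lie outside other transcripts of that strand and 72 outside those of either strand. The leading coding transcript of S100A6, ENST00000368720, had 54 reads over the 12 libraries and did not pass the filter. Its normalised reads were 2.76, 2.73 and 4.62 in untreated cells and 7.57, 7.79 and 6.97 with DAC. They were 3.17, 0.91 and 1.66 with ATRA, and 3.62, 8.42 and 3.71 with DAC+ATRA. S100A10, the partner of annexin A2 in a complex that binds plasminogen, had 74 reads over 4 transcripts and passed no filter. Summed over these, it had 6.43, 2.73 and 4.62 normalised reads in untreated cells, 3.24, 13.6 and 9.96 with DAC, 3.17, 2.73 and 1.66 with ATRA, and 5.42, 11.6 and 8.65 with DAC+ATRA.

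For each tested member whose leading transcript's group means differed by at least 1 on the log2 scale, the 3 protein-coding genes outside the family with the highest Pearson r over the 12 libraries were listed. These r values are descriptions over libraries that share 4 treatments. S100A9's were CHST15 (r = 0.997), FFAR1 (0.996) and CUX2 (0.993). CHST15, a chondroitin sulfate sulfotransferase, had mean normalised reads of 0, 38.1, 22.4 and 299.9 in untreated, DAC, ATRA and DAC+ATRA cells, an order like that of S100A9. S100P's were CLIC5 (0.993), NUAK2 (0.993) and DNASE2 (0.992). CLIC5, an intracellular chloride channel protein, went from 0 reads to 25.9 with DAC and 78.1 with DAC+ATRA, and had 0.28 with ATRA. S100A11's were TSC22D2 (0.943), FOXK1 (0.941) and AURKAIP1 (0.939), and S100A4's were MANSC1 (0.978), SPINK8 (0.949) and FUT1 (0.949).

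Genes outside the 10 members are given by their leading transcripts. Other S100 genes were mostly near 0. Of 11 further family members looked up, 1 was tested: S100A3, which lies beside S100A4 on chromosome 1. It had means of 0.92 normalised reads in untreated cells (3 reads in all), 49.7 with DAC, 64.1 with DAC+ATRA and 1.84 with ATRA. It was called with DAC (limma, adjusted p = 3.50e-09) and DAC+ATRA (adjusted p = 8.72e-10) but not with ATRA (adjusted p = 0.432). Its libraries with DAC ran from 44.8 to 79.1, and those without from 0 to 3.64, so it passed the filter only through the libraries with DAC and had to be higher there.

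Neighbours of the chromosome 1 members were also counted, 26 protein-coding genes outside the family within 250 kb. Of these, 5 were tested. With DAC 2 were called higher (beside 30.6% of all transcripts), with DAC+ATRA 3 (32.6%) and with ATRA none (6.47%), and none was lower. With ATRA the count was also 0 at an unadjusted p under 0.05 and in edgeR. NPR1, a receptor for natriuretic peptides, had mean normalised reads of 0.61, 23.2, 0.28 and 22.0 in untreated, DAC, ATRA and DAC+ATRA cells. LINGO4 had 2.14, 2.73, 0.63 and 40.5, and its log2 fold change with DAC+ATRA was 3.97 ± 0.53 (limma, adjusted p = 1.77e-06). NPR1 and LINGO4 too passed the filter only through treated libraries. CHTOP and THEM4, at 118 to 205 normalised reads, were not called against untreated cells.

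Of the receptors that S100 proteins act on, 3 of 12 genes were tested. RAGE itself (AGER) is listed at 0 in all libraries, but so are the broadly expressed genes ACTN4 and HIF1A, so a 0 here sets no level. TLR4, which S100A8/A9 can engage, had means of 213, 211, 297 and 526 normalised reads (in the order untreated, DAC, ATRA and DAC+ATRA, as for each set of means that follows), and was called with DAC+ATRA (1.32 ± 0.16, limma, adjusted p = 5.03e-07) but not with DAC (adjusted p = 0.991) or ATRA (0.49, adjusted p = 0.0455). CXCR1, a chemokine receptor, had no read in untreated cells, 0.30 normalised reads with ATRA, 5.67 with DAC and 61.0 with DAC+ATRA, the last at least 66.5-fold above untreated cells. It passed the filter only through the DAC+ATRA libraries and had to be higher there. SCARB1 was not called. The median log2 fold change of the 3 was 0.57 for DAC, 0.31 for ATRA and 1.32 for both; with CXCR1 set at its floor the ATRA median was 0.

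Of 28 partners and targets, 15 were tested: 6 were called higher with DAC (beside 30.6% of all transcripts), 8 with DAC+ATRA (32.6%) and 2 with ATRA (6.47%). Called lower were 1 with ATRA (beside 241 of 9016 transcripts) and 1 with DAC+ATRA (beside 1278). Their median log2 fold changes with DAC, ATRA and the combination were 0.71, 0.23 and 0.90 (0.15 with ATRA when TGM2, at 0 in untreated cells, is set at its floor). DLC1, a GTPase-activating protein and partner of S100A10, had the highest value in each comparison with untreated cells, with mean normalised reads of 2.14, 217, 54.9 and 480. DLC1 and TGM2 were among those that passed the filter only through treated libraries and had to be higher there. The counts for this list are therefore descriptions. AHNAK, a scaffold bound by S100A10 with annexin A2, was higher with DAC by 1.26 ± 0.11 (limma, adjusted p = 3.43e-09), lower with ATRA (-1.28 ± 0.11, adjusted p = 1.35e-08) and higher with DAC+ATRA by 0.40 ± 0.11 (adjusted p = 0.00298). MYH9, the heavy chain of the myosin that S100A4 binds, rose by 0.51 ± 0.10 with DAC (limma, adjusted p = 2.07e-04) and by 1.04 ± 0.10 with DAC+ATRA (adjusted p = 1.62e-08), and was 0.23 ± 0.10 with ATRA (adjusted p = 0.132). S100PBP, the S100P-binding protein, was lower with DAC+ATRA (-0.55 ± 0.10, adjusted p = 9.72e-05). ANXA2 and CACYBP, the calcyclin-binding protein, were not tested, with 13 and 47 reads over the 12 libraries on their leading transcripts.

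Of 16 transcription factors tied to S100 genes in myeloid cells, 11 were tested. With DAC 7 were called higher (beside 30.6% of all transcripts), with DAC+ATRA 7 (32.6%) and with ATRA 3 (6.47%). With DAC+ATRA 1 was lower (beside 1278 of 9016 transcripts). For DAC, ATRA and both, their median log2 fold changes were 1.10, 0.33 and 0.86. CEBPD, a C/EBP factor of late myeloid cells, had no read in untreated cells, 0.28 normalised reads with ATRA, 508 with DAC and 440 with DAC+ATRA, at least 553-fold higher with DAC. It passed the filter only through the libraries with DAC and had to be higher there, so the counts for these factors are descriptions. CEBPE, which acts late in granulocyte development, had means of 256, 1497, 1204 and 1693, and CEBPB had 692, 1253, 2649 and 2551. Both were called with each treatment. MYB, a factor of immature cells, was called lower with DAC+ATRA (-1.61 ± 0.35, limma, adjusted p = 5.87e-04).

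Among 30 calcium sensors with EF-hands outside the S100 family, 19 were tested: 6 were called higher and 2 lower with DAC, none with ATRA, and 6 higher and 2 lower with DAC+ATRA. With ATRA, 3 had an unadjusted p under 0.05 in limma and none was called in edgeR. In edgeR with TMM scaling, 3 sensors were higher and 4 lower with DAC, and 4 were higher and 4 lower with DAC+ATRA. Their median log2 fold changes with DAC, ATRA and DAC+ATRA were 0.34, 0.05 and 0.09. CAPN2, the large subunit of m-calpain, had the highest value with DAC (1.08 ± 0.24, limma, adjusted p = 9.10e-04). RCN2 had the lowest with DAC (-1.42 ± 0.43, adjusted p = 0.00958) and NUCB2 the lowest with DAC+ATRA (-1.58 ± 0.42, adjusted p = 0.00291).

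The label of a myelomonocytic line was checked against 10 myeloid markers, of which 5 had at least 10 normalised reads on average in untreated cells: MPO, SPI1, LYZ, ITGAM and FCGR1A. PTPRC (CD45) was listed at 0, and CD33, CD68, CSF1R and CD14 had 5 to 9 reads in all. The sum over 10 markers, mostly MPO, ran from 49674 to 55793 normalised reads in untreated cells, from 22220 to 34368 with DAC, from 27600 to 39067 with ATRA and from 18260 to 19622 with DAC+ATRA. ITGAM (CD11b) had means of 202, 856, 1002 and 2725. The summed T cell markers moved with DAC through CD2 alone (5.52, 349, 5.92 and 141), with CD3E at 0, and the summed B cell markers through CD79A (131, 513, 314 and 1336). Both erythroid markers were at 0, and the summed epithelial markers reached at most 9.96. The part of these markers in the S100 values was not tested.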

How the data were processed

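RNA-seq of U937 cells was analysed for 12 libraries, 3 a group. According to the study's methods and the submitters' processing notes, the authors prepared ribosome-depleted, strand-specific paired-end libraries, used STAR for alignment to hg38, HTSeq for counting and DESeq2 for normalisation; versions are not given in the sources used here. The deposited values are signal values per transcript, which are the authors' read counts divided by 1 size factor a library. All of them were whole multiples of 1 step in each library (100% within 0.01 of a read), so the reads were recovered from that step for the count alternatives. Library 6 has a step near 1, and limma and edgeR with TMM were also run without it. The libraries held 8042435 to 10683593 reads.

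Transcripts were matched to GENCODE 44 by identifier (174768 matched, 23014 not). Log2(value + 1) of the 9016 protein-coding transcripts with at least 10 in at least 3 libraries was fitted in limma 3.58.1 (trend and robust; R 4.3.3), using the 12 libraries together, and p-values were adjusted by Benjamini-Hochberg separately for each comparison. This fit was the one planned for normalised values. With 3 libraries against 3, an exact permutation test cannot give a two-sided p under 0.1, which was the value for each comparison described as not overlapping. The analysis was tested on simulated data, drawn with the same dispersion for every transcript. Real transcripts may spread more, so that test gives no support to the calls of members with few reads. The alternatives were edgeR 4.0.16, DESeq2 1.42.0, other scaling, filters, pseudocounts, thresholds and transcript sets, and leaving out each library. A leading transcript is a gene's protein-coding transcript with the highest mean. All members and every transcript of theirs past the filter are named; the genes most like a member are the 3 with the highest Pearson r. From the lists, the highest and lowest called gene in each comparison with untreated cells and AGER, TLR4, ANXA2, AHNAK, CACYBP and MYH9 are named, except items not reported here; further genes (CEBPE, CEBPB, NPR1, SCARB1, CHTOP, THEM4, ACTN4, HIF1A and the markers) were chosen after their values were seen. The members and lists were chosen with earlier results of these data known. RefSeq promoters came from a table of GRCh38.p14, in which all 10 members matched by symbol.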

Additional observations from a re-analysis of the deposited data

Results flagged for a closer look

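The effect of DAC on S100A9 differed with and without ATRA. The interaction on the log2 scale was -1.30 ± 0.18 (limma, adjusted p = 1.09e-04): S100A9 was 3.74 higher with DAC than in untreated cells and 2.44 higher with DAC+ATRA than with ATRA, and all 3 libraries of each treated group lay above those it was compared with. Leaving out any 1 library gave -1.45 to -1.20, and edgeR with TMM scaling gave -1.24. No other tested member had an interaction past the threshold, and whether S100A9's interaction differs from theirs was not tested.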

How the results depend on the processing

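S100A9 kept its direction and its call in all 6 comparisons under each alternative run, as did S100P with DAC, with DAC+ATRA and in DAC+ATRA against ATRA wherever it was tested. The counts of members called moved by over 1.5 times as follows; they are of leading coding transcripts, but with all transcripts or sums by symbol they also take in S100A6 and S100A13, which have no tested coding transcript. With DAC and with DAC+ATRA, 4 became 2 when at least 10 was required in every library and at an adjusted p under 0.001, and leaving out 1 library gave 2 to 4 in each. Over DAC, 1 became 2 (S100P added) with edgeR under either scaling, DESeq2, pseudocount 5, only the compared groups, an adjusted p under 0.05, and the alternatives chosen after seeing the data (edgeR without library 6, of all transcripts and of sums by symbol). Over ATRA, 2 became 1 at 10 in every library, 4 at an adjusted p under 0.05, 5 with sums by symbol in limma, 4 in edgeR with all transcripts or with sums by symbol, and 2 to 3 without 1 library. Smaller moves were also seen. With DAC, DESeq2 and edgeR without library 6 gave 3, and no filter and sums by symbol gave 5. With DAC+ATRA, DESeq2 and scaling to library size gave 3 (S100A11 lost in the latter, 1.06, adjusted p = 0.0103), and all transcripts and sums by symbol gave 5. Over ATRA, no filter, all transcripts, pseudocount 5, only the compared groups and edgeR without library 6 gave 3.

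Values that turned sign were all uncalled. S100A4 in DAC+ATRA against DAC (-0.15) was 0.028 with sums by symbol (0.065 in edgeR) and -0.24 to 0.010 without 1 library, and with ATRA it was -0.063 to 0.55 without 1 library. S100A11 without DAC library 6 in edgeR was 0.48 against DAC and 0.29 for the interaction, with -0.34 to 0.37 and -0.52 to 0.19 without 1 library. S100Z with DAC (0.09) was -0.21 in edgeR with TMM, -0.18 with DESeq2 size factors, -0.18 in DESeq2, -0.026 scaled to library size, -0.12 without library 6, -0.054 in edgeR with all transcripts and -0.016 with sums, and -0.29 to 0.36 without 1 library. S100Z with ATRA (0.11) was -0.018 in edgeR with TMM, -0.007016 with DESeq2 size factors, -0.0091 in DESeq2, -0.025 with sums (-0.13 in edgeR), -0.0026 without library 6 and -0.27 to 0.38 without 1 library. S100P with ATRA was -0.0034 to 0.45 without 1 library. The S100A6 transcript with DAC was -0.011 in edgeR and -0.11 to 0.32 without 1 library; the S100A13 transcript was -0.0014 in edgeR against ATRA, -0.061 to 0.18 there and -0.028 to 0.23 against DAC without 1 library. The causes were not tested.

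No paired analysis was possible because the value columns carry no replicate numbers of the labels. The ratio of S100A8 to S100A9 and its alternatives were not run, since S100A8 had 1 read. S100A4, S100A6, S100A8, S100A10, S100A12 and S100Z had at most 23 reads a transcript and library, which limits the precision of their values.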
